A study of Mus musculus with 19 samples.

Results

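The fragments described here come from the 2 mitochondrial ribosomal RNAs, the 12S rRNA (gene mt-Rnr1, ENSMUSG00000064337.1, chrM:70-1024, plus strand, build GRCm38) and the 16S rRNA (gene mt-Rnr2, ENSMUSG00000064339.1, chrM:1094-2675, plus strand). The 12S rRNA is 955 nt long and the 16S rRNA 1582 nt. Both are non-coding genes whose whole annotated span is a single exon. A read was counted when it matched one of them in the sense direction with at most 1 mismatch. Over the 19 libraries, 1406123 reads (64874 distinct sequences, 0.198% of all reads) came from 12S and 6857328 reads (171590 distinct sequences, 0.964%) from 16S. Positions below are counted from 1 at the first base of each rRNA.

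The study sequenced small RNAs of the sperm of wild type C57BL/6J male mice. From 8 weeks of age, the males had received by oral gavage, for 4 weeks, either vehicle (corn oil) or dicyclohexyl phthalate (DCHP), a plasticizer, at 10 mg/kg body weight per day. Sperm RNA was sequenced by a traditional small RNA protocol (5 control and 5 DCHP libraries) or by PANDORA-seq (4 control and 5 DCHP libraries), in which RNA is treated with T4 polynucleotide kinase and the demethylase AlkB before adapters are ligated. The treatment label names DCHP for every sample, so control and DCHP follow the sample titles. The study describes its replicates as mice, but the labels tie no library to a mouse, so p-values measure the spread between these libraries, which may be technical in part.

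The 12S rRNA belongs to the small and the 16S rRNA to the large subunit of the mitochondrial ribosome, which makes the subunits of the respiratory chain that mitochondrial DNA encodes. Both are cut from a long transcript in which tRNAs separate them: mt-Tf lies before 12S, mt-Tv between 12S and 16S, and mt-Tl1 after 16S. Sperm carry mitochondria in the midpiece, so mitochondrial RNA is found in sperm. A traditional protocol captures RNAs with a phosphate at the 5′ end and a hydroxyl at the 3′ end, whereas the kinase also lets RNAs with other ends be ligated and AlkB removes some methyl groups that stop the reverse transcriptase.

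PANDORA-seq libraries held 25432054 to 56506344 reads and traditional libraries 21588335 to 52099239. Of these, 21509 to 102001 reads were 12S and 81442 to 347935 were 16S in PANDORA-seq, against 50378 to 150049 and 256893 to 816837 in traditional libraries. At these depths the counting error of a library's total is far below the spread between libraries. Antisense reads were near absent, 0 to 10 per rRNA in a PANDORA-seq library and 7 to 190 in a traditional one. No read matched both rRNAs, and 99.5% or more of the reads of either rRNA in each library matched no other gene of the reference equally well or better.

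The most abundant fragments of both rRNAs are printed first, because the results turn on where they start and end. For each rRNA they are the 5 sequences with the highest mean RPM (reads-per-million, of all reads of the library) in PANDORA-seq and the 5 in traditional libraries. Every one is an exact match. Capitals mark the stretch that all printed fragments of one site share. The 12S fragments below came from 4 sites, at positions 159 to 186 (chrM:228-255), 268 to 296 (chrM:337-365), 508 to 561 (chrM:577-630) and 672 to 706 (chrM:741-775).
12S 159-186, PANDORA-seq rank 1: acgggactcagcagtgataaatattaag
12S 268-296, PANDORA-seq rank 5: aaactaattatcttcggcgtaaaacgtgt
12S 508-532, traditional rank 4: taaaactcaaaggacttggcggtac
12S 516-552, PANDORA-seq rank 2: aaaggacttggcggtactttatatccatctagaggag
12S 516-555, PANDORA-seq rank 3: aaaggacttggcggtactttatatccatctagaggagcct
12S 538-561, PANDORA-seq rank 4: atccatctagaggagcctgttcta
12S 672-692, traditional rank 3: AAAACGTTAGGTCAAGGTGTA
12S 672-693, traditional rank 1: AAAACGTTAGGTCAAGGTGTAg
12S 672-698, traditional rank 5: AAAACGTTAGGTCAAGGTGTAgccaat
12S 672-706, traditional rank 2: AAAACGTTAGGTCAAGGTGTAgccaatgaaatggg

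No 12S sequence was in the leading 5 of both methods, but the site at 508 to 561 held leading fragments of both. The 4 leading traditional fragments at 672 had the same 5′ end and differed at the 3′ end, from 21 to 35 nt in length. The printed fragments at 508 to 561 shared no stretch, so they are in lower case.

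The 16S fragments came from 2 sites, and the methods shared one of them. No 16S sequence was in the leading 5 of both methods either. All 5 leading traditional sequences and 3 of the 5 leading PANDORA-seq sequences lay at positions 1247 to 1291 (chrM:2340-2384). The other 2 PANDORA-seq sequences lay 3′ of it at 1319 to 1352 (chrM:2412-2445).
16S 1247-1287, traditional rank 5: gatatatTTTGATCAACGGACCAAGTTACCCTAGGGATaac
16S 1252-1291, PANDORA-seq rank 1: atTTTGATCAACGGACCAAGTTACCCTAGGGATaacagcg
16S 1253-1291, PANDORA-seq rank 3: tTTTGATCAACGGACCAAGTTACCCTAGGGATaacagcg
16S 1254-1291, PANDORA-seq rank 4: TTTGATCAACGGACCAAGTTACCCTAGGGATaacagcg
16S 1253-1287, traditional rank 4: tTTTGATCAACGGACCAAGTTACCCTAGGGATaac
16S 1254-1287, traditional rank 1: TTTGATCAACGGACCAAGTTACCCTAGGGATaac
16S 1254-1284, traditional rank 2: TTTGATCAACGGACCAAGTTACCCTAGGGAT
16S 1254-1290, traditional rank 3: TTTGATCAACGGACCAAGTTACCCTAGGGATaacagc
16S 1319-1347, PANDORA-seq rank 5: AATTAGGGTTTACGACCTCGATGTTGGAT
16S 1319-1352, PANDORA-seq rank 2: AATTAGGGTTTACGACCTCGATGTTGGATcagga

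At the shared site, the 3 leading PANDORA-seq fragments all ended at 1291 and the leading traditional fragments ended at 1284, 1287 or 1290.

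The balance of the 2 rRNAs differed between methods and needs no other RNA as a denominator. The log2 ratio of 16S to 12S reads was 1.92, 1.67, 1.36 and 1.75 in the PANDORA-seq control libraries and 1.77, 2.06, 1.74, 2.05 and 2.10 in the PANDORA-seq DCHP libraries. It was 2.62, 2.49, 2.44, 2.48 and 2.66 in traditional control libraries and 2.44, 2.34, 2.45, 2.36 and 2.46 in traditional DCHP libraries. Every PANDORA-seq library lay below every traditional library, so 12S made up a larger part of the fragments in PANDORA-seq. Per 12S read there were 3.22 ± 0.509 16S reads (SD, n = 4) in PANDORA-seq control and 5.81 ± 0.398 (n = 5) in traditional control, while the 16S rRNA is 1.66 times as long. PANDORA-seq was lower by 0.86 on the log2 scale in control (two-sided exact permutation test, p = 0.00794, Benjamini-Hochberg adjusted p = 0.0159) and by 0.47 in DCHP (exact p = 0.00794, adjusted p = 0.0159). With the same-numbered DCHP libraries of the 2 methods paired, all 5 pairs had the lower value in PANDORA-seq and the exact sign-flip p was 0.0625, the smallest that 5 pairs can give. The call in control was lost without traditional control library 1, 2 or 5 (adjusted p up to 0.0571). Each of these 3 fits had no overlap and gave the smallest p that its libraries allow, so the loss cannot show that the difference rests on 1 library. Over all fits without 1 library the difference was -0.95 to -0.76.

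The difference between DCHP and control in this ratio had opposite signs in the 2 methods. In PANDORA-seq the mean was 1.94 ± 0.175 (SD, n = 5) in DCHP and 1.67 ± 0.236 (n = 4) in control, a difference of 0.27 that missed the threshold (exact permutation test, p = 0.0794, adjusted p = 0.0794). In traditional libraries the mean was 2.41 ± 0.0564 (n = 5) in DCHP and 2.54 ± 0.0978 (n = 5) in control, so that the ratio fell by 0.13 with DCHP (exact p = 0.0317, adjusted p = 0.0423), although the groups overlapped. That call was lost in 8 of the 10 fits that left out 1 library, with adjusted p up to 0.0952, and the difference then lay between -0.15 and -0.09. Between PANDORA-seq and traditional libraries, the change with DCHP differed by 0.40 (exact permutation of exposure within each method, p = 0.0113, or adjusted p = 0.0791 over 7 such tests on the measures given here).

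**Figure D1:**
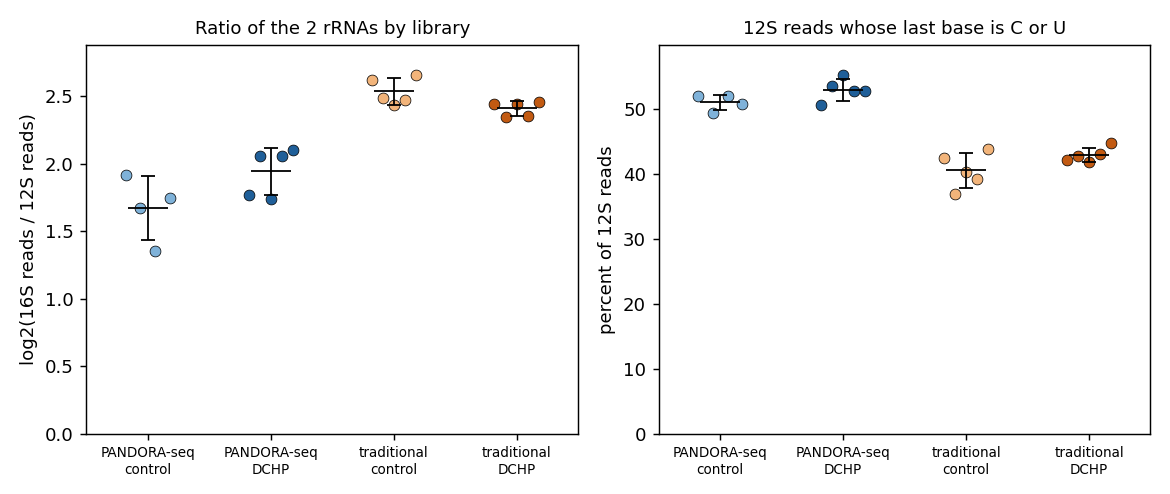
The left panel plots the log2 ratio of 16S to 12S reads and the right panel the percent of 12S reads whose last base is C or U, with a point for each library and the mean ± SD of each group of 4 or 5 libraries. The PANDORA-seq libraries lie at 2.10 or lower on the left and at 49.4% or higher on the right, on the other side of all traditional libraries in both panels.

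The levels of the fragments gave no single direction between methods, because it turned with the denominator. In RPM, 12S stood at 846, 1419, 1339 and 1366 in PANDORA-seq control and at 2155, 850, 1271, 1186 and 808 in PANDORA-seq DCHP. In traditional libraries it stood at 1480, 2678, 2335, 2387 and 3278 in control and at 3486, 2344, 2652, 3128 and 2340 in DCHP. PANDORA-seq held 0.511 times the 12S RPM of traditional sequencing in control and 0.449 times in DCHP (exact permutation tests, p = 0.0159 and 0.00794, both adjusted p = 0.0317).

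The 16S rRNA showed the same order. It stood at 3202, 4528, 3426 and 4582 RPM in PANDORA-seq control and at 7351, 3531, 4241, 4926 and 3474 in PANDORA-seq DCHP. The traditional libraries held 9091, 15061, 12643, 13271 and 20740 in control and 18974, 11900, 14465, 16003 and 12898 in DCHP. No PANDORA-seq library reached the lowest traditional one, and the PANDORA-seq mean was 0.278 times the traditional mean in control and 0.317 times in DCHP (exact p = 0.0159 and 0.00794, both adjusted p = 0.0317). By rRNA length, the traditional libraries held 5747 to 13110 RPM per kb for 16S against 1549 to 3650 for 12S.

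The study scaled small RNAs to miRNA reads. Here that total was taken as the reads on miRNA hairpins, and it may differ from the total of the study. On this scale 12S went the other way. There were 0.0989 ± 0.0295 (SD, n = 4) 12S reads per miRNA read in PANDORA-seq control and 0.0373 ± 0.0179 (n = 5) in traditional control, 2.65 times as many, with no overlap (exact permutation test, p = 0.00794, adjusted p = 0.0317). In DCHP the values were 0.106 ± 0.0440 (n = 5) and 0.0427 ± 0.0165 (n = 5), 2.49 times as many, again with no overlap (exact p = 0.00794, adjusted p = 0.0317), or an exact sign-flip p of 0.0625 with the DCHP libraries paired. The 16S fold was 1.43 in control (exact p = 0.206, adjusted p = 0.413) and 1.76 in DCHP (exact p = 0.0317, adjusted p = 0.0847), and the groups overlapped. The PANDORA-seq DCHP library 1 had the highest 12S and 16S values of its method on both scales, and without it the 12S fold in DCHP was 2.05 (adjusted p = 0.0635). The same call was lost without traditional DCHP library 2, 3, 4 or 5 (adjusted p up to 0.0952). The control call was lost whichever library was left out (adjusted p up to 0.0847). The control groups had no overlap in any of these fits, and each gave the smallest p that its libraries allow. Its loss therefore cannot show that the difference rests on 1 library. The 16S fold in DCHP passed at 2.08 without traditional DCHP library 1 (adjusted p = 0.0423).

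The miRNA total moved with the method. Reads on miRNA hairpins stood at 10607 to 14008 RPM in PANDORA-seq and 45483 to 169485 RPM in traditional libraries. In PANDORA-seq, 2.22% to 10.1% of those reads lay on hairpins whose reads, over all libraries, were mostly of the mature miRNA length of 20 to 24 nt, against 88.9% to 98.1% in traditional libraries. With that narrower total, a choice made after seeing the data, the folds of PANDORA-seq over traditional were 67.0 for 12S and 37.2 for 16S in control. A direction for the fragment levels between methods is therefore a statement on the denominator as well, and its part was not tested.

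Exposure did not move either level past the test. In PANDORA-seq the ratio of DCHP to control per miRNA read was 1.07 for 12S (exact permutation test, adjusted p = 0.905) and 1.28 for 16S (adjusted p = 0.521). In traditional libraries it was 1.15 for 12S (adjusted p = 0.804) and 1.04 for 16S (adjusted p = 0.905). The groups overlapped in all 4 comparisons. A change in the number of fragments per cell and a change in other small RNAs cannot be told apart in such libraries.

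**Figure D2:**
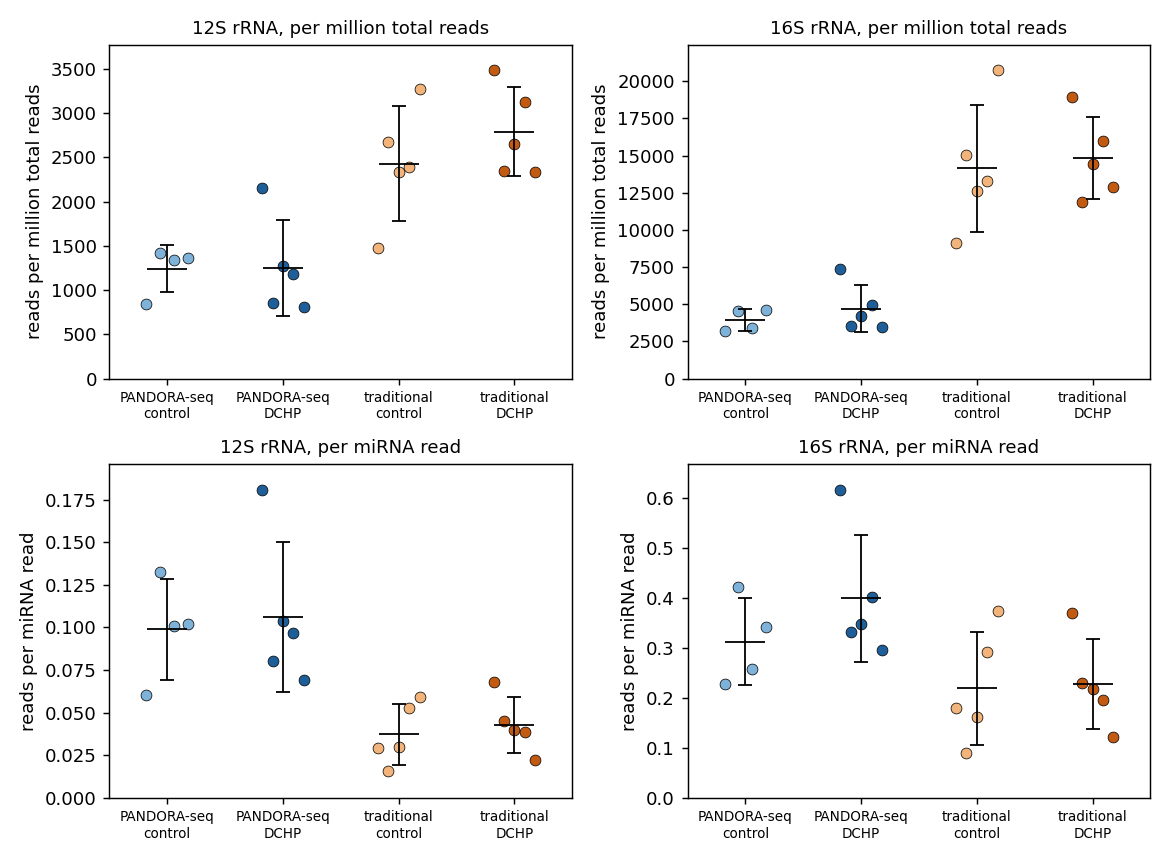
Each point is a library, plotted as 12S (left) or 16S (right) RPM (top) or per miRNA read (bottom), with the mean ± SD of the 4 groups. Within control and within DCHP, the PANDORA-seq points lie below the traditional points in the top panels and, for 12S, above them in the bottom left panel.

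Within each rRNA the reads came in large part from a few places, whose shares differed between methods. Coverage was measured as the share of an rRNA's read bases in bins of 50 nt, 19 bins for 12S and 32 for 16S. The shares of an rRNA add up to its whole, so a lower share in a bin raises those of others. A higher share is thus not a higher level. All 955 positions of 12S and 1510 of the 1582 positions of 16S were covered in every library, but the 3 bins with the highest share in each library, of the 19 of 12S, held 69.7 ± 2.42% (SD, n = 5) of the read bases in traditional control and 56.5 ± 2.80% (n = 4) in PANDORA-seq control. For 16S, the 3 highest of the 32 bins in each library held 72.7 ± 1.26% and 49.5 ± 3.11%.

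The largest difference in 12S was in the bin 651 to 700 (chrM:720-769), which holds the site at 672. Its share was 12.1, 16.2, 10.3 and 12.5% in PANDORA-seq control and 13.8, 11.9, 11.7, 12.9 and 12.8% in PANDORA-seq DCHP. In traditional libraries it was 45.3, 49.5, 47.1, 49.9 and 43.7% in control and 47.7, 42.3, 44.8, 46.98 and 43.3% in DCHP. The share was lower in PANDORA-seq by 34.4 percentage points in control and 32.4 in DCHP (exact permutation tests, both p = 0.00794, adjusted p = 0.0149 over the 88 bins of 12S, 16S and the cytoplasmic 18S rRNA).

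Over all of 12S, 9 of the 19 bins had a higher and 6 a lower share in PANDORA-seq control (exact permutation tests), against 69.3% of all 88 bins, 18S included, called in either direction. The bin 501 to 550 (chrM:570-619) held 34.7, 25.9, 21.6 and 24.99% of 12S read bases in PANDORA-seq control and 20.5 to 31.5% in PANDORA-seq DCHP, against 13.9 to 17.1% in the 10 traditional libraries. The bin 251 to 300 (chrM:320-369) held 9.84, 10.8, 24.9 and 18.9% in PANDORA-seq control and 13.6 to 17.3% in PANDORA-seq DCHP, against 4.03 to 6.19% in traditional libraries. Its PANDORA-seq control libraries spread more than any other group at these bins, yet none overlapped with the traditional libraries. Both bins passed the test in control and in DCHP (exact permutation tests, adjusted p = 0.0149 each). The bin 151 to 200, which holds the leading PANDORA-seq fragment, held 9.08% in the mean of PANDORA-seq control and 0.822% in traditional control, and the bin 551 to 600 held 9.12% and 2.24% (exact permutation tests, adjusted p = 0.0149 each). The third bin of the traditional libraries, 701 to 750, held 6.16 to 9.02% there and 3.57 to 4.79% in PANDORA-seq.

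In 16S the bin 1251 to 1300 (chrM:2344-2393) led in both methods but by different margins. It held 31.6, 27.3, 27.8 and 32.8% of 16S read bases in PANDORA-seq control and 34.3, 34.5, 29.9, 35.3 and 33.3% in PANDORA-seq DCHP. In traditional libraries it held 67.2, 64.5, 63.3, 65.4 and 64.7% in control and 63.6, 60.6, 62.5, 58.4 and 49.8% in DCHP. PANDORA-seq was lower by 35.2 percentage points in control and 25.5 in DCHP (exact permutation tests, both adjusted p = 0.0149).

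The bins just 3′ of that peak had a higher share in PANDORA-seq. The bin 1301 to 1350 (chrM:2394-2443) held 8.25 to 12.8% in PANDORA-seq libraries and 1.31 to 2.03% in traditional ones, and the bin 1401 to 1450 held 5.10 to 12.6% against 1.36 to 4.28%. Both passed the test in control and in DCHP (exact permutation tests, adjusted p = 0.0149). At the other end of the ranking, the bin 351 to 400 of 16S held at most 0.0103% of read bases in any library.

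Counted over both rRNAs, 43 of the 51 bins differed in share between methods in control, 31 higher and 12 lower in PANDORA-seq, and 38 differed in DCHP, 25 higher and 13 lower. These calls are not independent, because the lower share of a leading bin raises the shares of the other bins of its rRNA. How many of the higher shares follow from that was not tested. Over all 88 bins the share called was 69.3% in control and 63.6% in DCHP. With the same-numbered DCHP libraries paired, the sign-flip test cannot go below 0.0625 and called no bin.

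Exposure changed no bin past the threshold. In PANDORA-seq 0 of 51 bins were called and 3 had an unadjusted exact p under 0.05. Of all 88 bins 0% were called and 3 had such a p. In traditional libraries 0 of 51 were called, again with 0% of the 88 bins called. An unadjusted exact permutation p under 0.05 was found at 18 of the 51 and at 20 of all 88. Of the 18, 17 had a higher share in DCHP, 3 of them in 12S and 14 in 16S, and 1 had a lower share. That one was the leading 16S bin, 65.0 ± 1.44% (SD, n = 5) in traditional control and 59.0 ± 5.52% (n = 5) in traditional DCHP (exact permutation p = 0.0159, adjusted p = 0.1995), whose lowest value belonged to DCHP library 5. The shares of an rRNA add up to its whole, so a lower share in this bin raises those of other 16S bins. Its part in their higher shares was not tested. At least 14 bins had to reach the smallest p for any call at this size. Without the traditional DCHP library 1, 14 of the 51 bins were called, and 0 were called without any other single library.

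**Figure D3:**
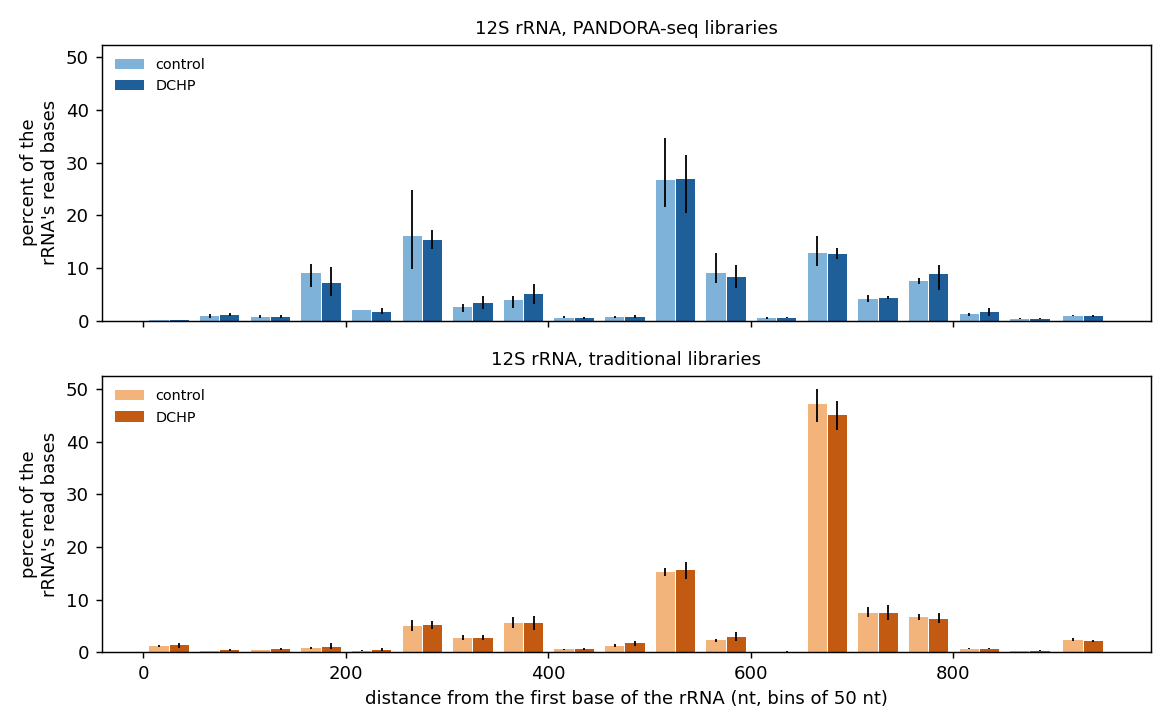
Bars give the mean share of 12S read bases in each bin of 50 nt, and black lines the lowest and highest library of the group, for control and DCHP libraries of PANDORA-seq (top, n = 4 and 5) and of traditional sequencing (bottom, n = 5 and 5). The tallest traditional bars, 47.1% and 45.01%, stand at 651 to 700, and the tallest PANDORA-seq bars, 26.8% and 26.9%, at 501 to 550.

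**Figure D4:**
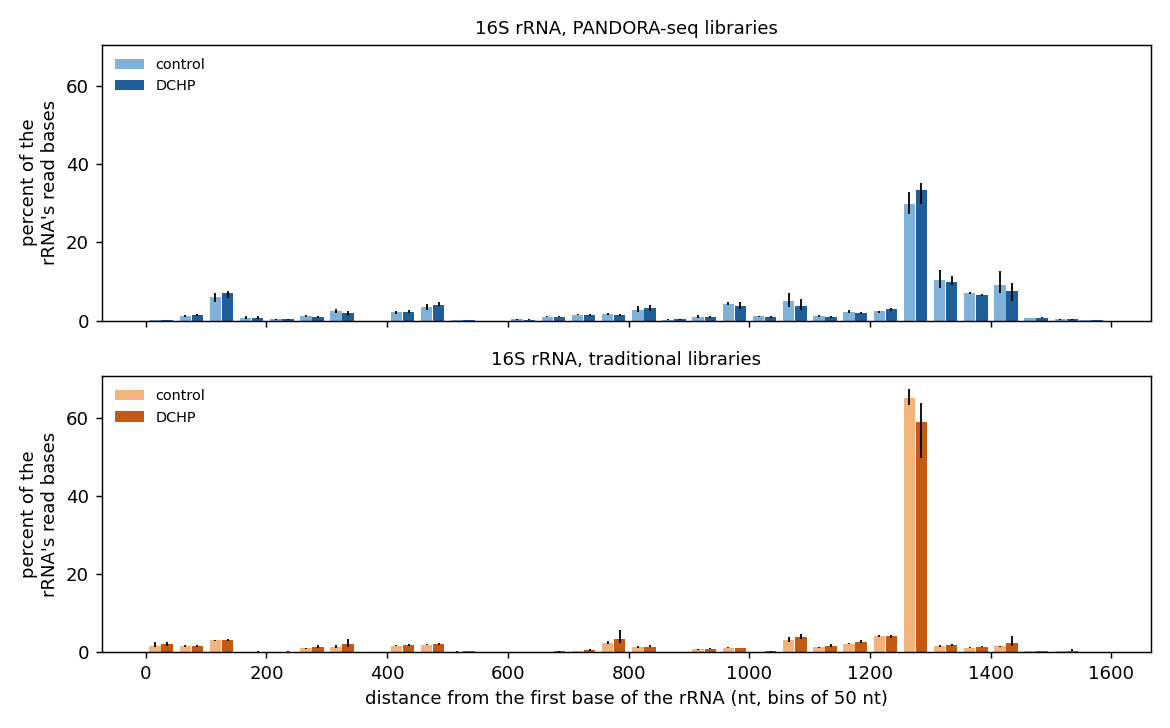
Bars and lines are as for 12S, over the 32 bins of 16S. The bin 1251 to 1300 is the tallest in every group, at 65.0% and 59.0% in traditional and 29.9% and 33.5% in PANDORA-seq libraries, and the 3 bins that follow it are taller in PANDORA-seq.

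The ends of the reads were sharply placed. In traditional libraries 17.2% of control and 16.7% of DCHP 12S reads (group means) started at position 672, the 5′ end of the 4 leading fragments, and 6.99% and 7.07% started 1 nt before it, while position 672 took 1.095% and 1.076% in PANDORA-seq. PANDORA-seq 12S reads started most often at 159 (7.80% in control and 5.98% in DCHP, against 0.397% and 0.468% in traditional libraries) and at 516 (6.65% and 7.24%, against 0.790% and 0.942%). Both of these starts are an A that follows a C in the rRNA.

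The 12S 3′ ends differed in the same way. Position 186, the end of the fragment that starts at 159, took 6.15% of PANDORA-seq control reads and 4.26% of PANDORA-seq DCHP reads, and 0.110% and 0.158% in traditional libraries. In traditional libraries the end at 693 took 8.47% and 6.62% and the end at 706 took 7.10% and 7.61%, against 0.614% and 0.478%, and 3.28% and 3.35%, in PANDORA-seq. The ends at 532 and 692 also held over 5% of traditional control reads.

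For 16S the methods shared the starts at 1253 and 1254 among their leading ones, but the leading start of PANDORA-seq was at 1252. In traditional libraries 15.9% of control and 13.9% of DCHP reads started at 1254 and 8.39% and 7.33% at 1253. In PANDORA-seq the starts were spread over 1252 (5.74% and 6.12%), 1253 (4.87% and 5.59%) and 1254 (4.44% and 5.16%). The start at 1252 took 4.48% and 3.85% in traditional libraries. At the 3′ ends, 14.3% and 12.7% of traditional reads ended at 1287 and 7.49% and 7.24% at 1284, against 5.41% and 6.65%, and 2.68% and 2.19%, in PANDORA-seq. The start at 1246 took 4.06% and 4.94% in PANDORA-seq and 5.13% and 4.61% in traditional libraries. The starts at 1247 and 1251 and the end at 1290 held 5.15% to 6.66% in the traditional groups and 0.912% to 2.85% in the PANDORA-seq groups. The end at 1291 took 5.23% and 7.06% in PANDORA-seq and 3.67% and 3.17% in traditional libraries.

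At the rRNA termini, few reads started at the first base in PANDORA-seq and more did in traditional libraries. The last base ended at most 0.28% of 12S and 0.0027% of 16S reads in any library. The first base of 12S began 0.822% to 1.53% of the 12S reads of a traditional library and 0.0173% to 0.0421% in PANDORA-seq. The first base of 16S began 1.36% to 3.09% of traditional and 0.0905% to 0.181% of PANDORA-seq 16S reads. The bin 1 to 50 was lower in PANDORA-seq for both rRNAs, by 1.01 percentage points for 12S and 1.55 for 16S in control (exact permutation tests, adjusted p = 0.0149 each). Reads that ran from 16S across its border into mt-Tv were at most 0.00841% of 16S reads in any library, and reads into mt-Tl1 at most 0.00467%. Those that ran from 12S into mt-Tv were at most 0.0225% of 12S reads. Reads across the border of mt-Tf and 12S were not analysed here.

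Read length separated the methods for 12S in the controls, though not past the corrected threshold. Mean 12S read length was 31.3, 31.6, 31.2 and 32.02 nt in PANDORA-seq control and 29.8, 29.0, 28.4, 28.5 and 29.3 nt in traditional control, a difference of 2.54 nt with no overlap (exact permutation test, p = 0.00794, adjusted p = 0.0635 over 8 tests). In DCHP it was 32.9, 33.8, 30.3, 32.8 and 34.3 nt against 29.5, 29.5, 28.3, 28.8 and 30.7 nt, a difference of 3.46 nt (exact p = 0.0159, adjusted p = 0.0635). The 16S difference was 0.72 nt in control (adjusted p = 0.203) and 2.13 nt in DCHP (adjusted p = 0.0635). Short 12S reads of 15 to 24 nt made up 30.8% to 39.7% of traditional and 11.85% to 24% of PANDORA-seq libraries. The reads deposited were 15 to 45 nt long, so longer fragments were not seen, and 0.541% to 5.96% of the reads of either rRNA were at the upper limit of 45 nt.

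Exposure gave no call for length with all libraries. In PANDORA-seq, 12S reads were 1.28 nt longer in DCHP than in control (exact permutation test, adjusted p = 0.212) and 16S reads 1.101 nt longer (adjusted p = 0.203). The PANDORA-seq DCHP library 3 had the shortest reads of its group for both rRNAs. Without it the differences were 1.90 nt and 1.56 nt (adjusted p = 0.0457 each), and those between methods in DCHP were 4.07 nt and 2.59 nt (adjusted p = 0.0212 each). In traditional libraries the differences were 0.37 nt for 12S (adjusted p = 0.492) and -0.31 nt for 16S (adjusted p = 0.463).

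**Figure D5:**
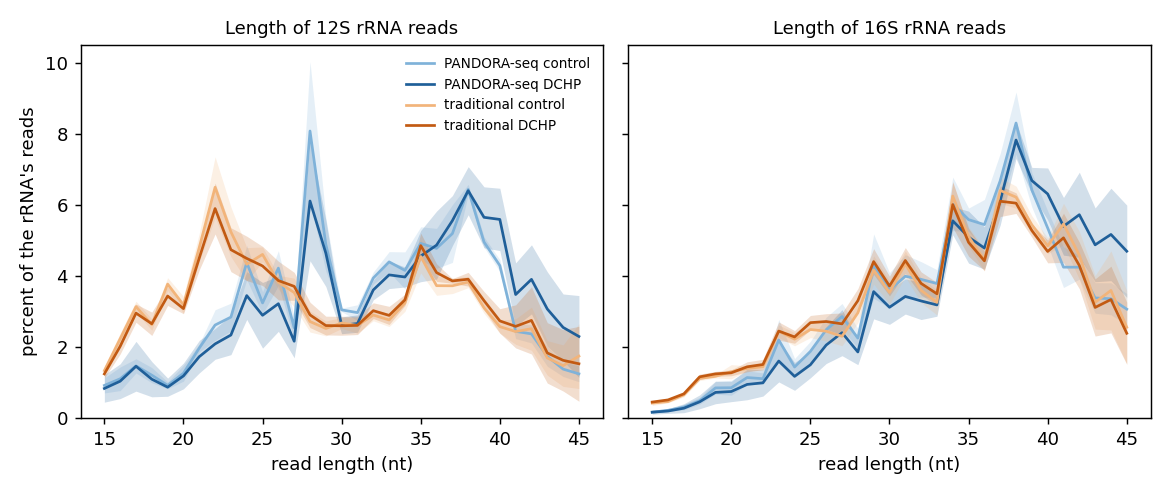
Lines give the mean percent of 12S (left) or 16S (right) reads at each read length from 15 to 45 nt in the 4 groups, and bands ± SD (n = 4 or 5). The 12S lines of traditional libraries peak at 22 nt (6.50% in control) and those of PANDORA-seq at 28 nt in control (8.08%) and 38 nt in DCHP (6.40%), while the 16S lines peak at 38 nt in PANDORA-seq and 37 nt in traditional libraries.

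The last base of the reads differed between methods in 12S. Reads ending in C or U made up 51.9, 49.4, 51.9 and 50.7% of 12S reads in PANDORA-seq control, whose mean was 51.0 ± 1.19% (SD, n = 4), against 40.5 ± 2.70% (n = 5) in traditional control, 10.5 percentage points more with no overlap (exact permutation test, p = 0.00794, adjusted p = 0.0317). In DCHP the means were 53.0 ± 1.70% (n = 5) and 42.9 ± 1.13% (n = 5), a difference of 10.1 points (exact p = 0.00794, adjusted p = 0.0317). The control call was lost whichever library was left out (adjusted p up to 0.114), where the difference was 9.54 to 11.3 points. These fits had no overlap and gave the smallest p that their libraries allow, so this loss cannot show that the difference rests on 1 library. The DCHP call was kept in all 10 fits without 1 library. With the same-numbered DCHP libraries of the 2 methods paired, the DCHP call was lost too (exact sign-flip p = 0.0625, adjusted p = 0.333). The share of C and U in the 12S sequence is 46.1%, between the 2 methods. Single ends weigh on this share. The ends at 692, 693 and 706 are A, G and G. They took 5.13%, 8.47% and 7.10% of traditional control reads and 0.141%, 0.614% and 3.28% of PANDORA-seq control reads. The ends at 186 (G, 0.110% and 6.15%) and 532 (C, 5.33% and 1.99%) went the other way. The part of these ends in the difference was not tested. In 16S the methods overlapped, 48.5 ± 2.14% (n = 4) against 49.9 ± 1.79% (n = 5) in control (exact p = 0.341, adjusted p = 0.455). Exposure gave no call in either method (exact permutation tests, adjusted p from 0.222 to 0.675).

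Single sequences were tested over all small RNA sequences of high level, the 20000 highest per method or their union of 33330 for methods. The union held 330 sequences of 12S and 1173 of 16S. In control, 446 of these 1503 were higher in PANDORA-seq and 547 lower (edgeR quasi-likelihood test scaled to miRNA reads, adjusted p below 0.1 and over 2-fold), whereas 56.0% of all sequences were higher and 33.0% lower. In DCHP 474 were higher and 569 lower, against 58.0% and 33.1% of all sequences. The union was chosen for high level in one method or the other, so many of its sequences had to differ. Scaled to total reads, the split of the members was 261 higher and 1074 lower in control and 243 and 1082 in DCHP, and with TMM it was 218 and 1135, and 244 and 1086. Over all 33330 sequences, the split with total reads was 15413 higher and 14672 lower in control and 16078 and 14374 in DCHP. With TMM that split was 14284 and 15347, and 16106 and 14368. The mean log2 RPM of miRNA reads was lower by 2.46 in PANDORA-seq control than in traditional control, which is the shift between the 2 scales. With the replicate number as a block, 475 members were higher and 565 lower in DCHP, against 19489 and 11042 of all 33330 sequences.

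Among the fragments printed above, those at 159 and 516 of 12S and at 1319 of 16S stood higher in every PANDORA-seq library than in any traditional library in RPM. The printed fragments were chosen for a high level in one of the methods, so their differences between methods are a description, with no test. The 12S fragment 159 to 186 stood at 22.3, 88.6, 89.1 and 65.7 RPM in PANDORA-seq control and 128, 23.3, 51.0, 36.2 and 14.4 in PANDORA-seq DCHP. It stood at 0.365 to 2.19 in traditional control and 0.402 to 8.52 in traditional DCHP. Per miRNA read its log2 fold change was 7.66 in control and 6.47 in DCHP, where it was 5.78 without PANDORA-seq DCHP library 1 and 7.76 without traditional DCHP library 2, the library at 8.52 RPM.

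The 16S fragment 1319 to 1352 stood at 34.96, 113.6, 48.7 and 54.7 RPM in PANDORA-seq control, 32.6 to 149 in PANDORA-seq DCHP and 4.51 to 14.5 in the traditional libraries, with a log2 fold change of 5.11 in control (4.50 without PANDORA-seq control library 2) and 5.43 in DCHP. The 12S fragment 516 to 552 had log2 fold changes of 5.998 and 5.72. The 12S fragment 538 to 561 stood at 14.3 RPM in the traditional DCHP library 2, within the PANDORA-seq range, and at most at 4.24 in the other traditional libraries.

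The leading 12S fragment of traditional sequencing, the 22-nt fragment 672 to 693, stood at 33.6, 95.6, 70.2, 69.2 and 61.9 RPM in traditional control and 34.03 to 73.7 in traditional DCHP, and at 0.0907 to 0.838 in the 9 PANDORA-seq libraries. Its log2 fold change per miRNA read was -5.21 in control and -4.57 in DCHP. The 21-nt form was listed at 0 in the PANDORA-seq control library 1 and at most at 0.279 in the other PANDORA-seq libraries. The 35-nt form, 672 to 706, stood at 2.38 to 5.75 in PANDORA-seq and 27.4 to 76.0 in traditional libraries, with smaller log2 fold changes of -1.27 and -1.74.

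At the 16S peak the log2 fold change per miRNA read differed between fragments with different ends. For the fragment 1252 to 1291 it was 2.83 in control and 3.76 in DCHP, and for 1254 to 1291 it was 0.41 and 1.24. For 1254 to 1287 it was -1.85 and -0.97, and for 1254 to 1284 it was -1.73 and -1.68. The 1254 to 1287 fragment was the most abundant in traditional libraries of all sequences printed, at 239, 360, 330, 373 and 591 RPM in traditional control and 13.7 to 24.2 in PANDORA-seq control. Scaled to total reads, the log2 fold change of 1253 to 1291 turned from 1.36 to -1.02 in control and that of 1254 to 1291 from 1.24 to -1.21 in DCHP, where it was -1.24 with TMM. In control the log2 fold change of 1254 to 1291 turned from 0.41 to -2.55 with TMM.

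No single 12S or 16S sequence was called for exposure by edgeR. In PANDORA-seq 0 of 546 were called by edgeR (49 at an unadjusted p under 0.05), against 0.0100% of the 20000 sequences called and 1316 at such a p. DESeq2 called 1 of the 546, the 19-nt 16S fragment 1254 to 1272, against 0.700% of all sequences, 128 higher and 12 lower. This fragment was named after its values were seen, and its log2 fold change was 1.51 (DESeq2, adjusted p = 0.0827; edgeR, adjusted p = 0.661). In traditional libraries 0 of 1249 were called by edgeR (4 at an unadjusted p under 0.05) or DESeq2, against 0% of all sequences by edgeR and 0.1% by DESeq2, 3 higher and 17 lower. Of the 20000 sequences there, 722 had such an unadjusted p by edgeR. The median log2 fold change of DCHP over control was 0.04 for 117 12S and 0.30 for 429 16S sequences in PANDORA-seq, and 0.15 for 250 and 0.09 for 999 sequences in traditional libraries. In PANDORA-seq the 8 printed fragments of the 16S peak had log2 fold changes of 0.03 to 0.92 for DCHP over control (edgeR, adjusted p from 0.746 to 0.997).

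Mismatches were more frequent in traditional than in PANDORA-seq libraries. In traditional libraries 16.6% to 19.99% of the reads of either rRNA carried a mismatch, against 9.39% to 12.1% in PANDORA-seq. A mismatch at the last base was found in 6.58% to 9.86% of 12S and 4.65% to 6.20% of 16S reads in traditional libraries, and in 2.84% to 3.52% and 2.97% to 3.88% in PANDORA-seq. A mismatch inside the read was found in 9.10% to 11.15% of 12S and 10.6% to 11.97% of 16S reads in traditional libraries, and in 5.74% to 7.43% and 6.76% to 8.41% in PANDORA-seq. The methods did not overlap in any of these shares. In every group the mean share was higher inside the read than at its last base. The share inside the read covers all its inner bases and the other a single base, so these shares do not compare rates per base. The base read at a mismatched last base was an A in 52.0% to 74.1% and a C in 23.5% to 41.7% of these cases over all libraries. A read that carries more than 1 base that does not match is not among those counted here.

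Of 1556 positions of 12S and 16S with at least 100 reads in each library, 362 differed in mismatch share between methods in control and 554 in DCHP (exact permutation tests, adjusted p below 0.05). Those of 12S, 104 in control and 149 in DCHP, were all lower in PANDORA-seq. Those of 16S were 7 higher and 251 lower in control and 3 higher and 402 lower in DCHP. Over 3350 positions, 18S included, 37.4% and 49.5% were called. With the first and last base of each read left out, a choice made after seeing the data, 361 were called in DCHP. In control 0 positions were called whichever library was left out; with all libraries 532 positions already had to reach the smallest p for a call. In DCHP it left 391 to 550, and with the DCHP libraries paired 0 were called.

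A median mismatch share over 5% in any group was found at 9 positions of 12S and 20 of 16S, and at 7 and 14 of them at least 80% of the mismatches lay at the last base of the read. In the names of changes that follow, the rRNA base stands first and the base of the reads last. The highest was T348A of 16S, at 68.9% in traditional and 44.6% in PANDORA-seq control, at a position covered by as few as 112 reads in a library. The change G1162A of 16S had a median share of 20.5% in traditional control and 3.62% in PANDORA-seq control, and T533C of 12S 14.3% and 1.45%. T1445A of 16S was at 18.5% in both groups, with 98.99% of its mismatches at the last base. Without the read ends, T225A and C578A of 12S and T348A and T1534A of 16S had no value, so they were not assessed. With the read ends kept, T1534A had a median share of 23.8% in traditional control and 8.09% in PANDORA-seq control. The last base of the read held 36.8% of its mismatches. Among the positions with a value without read ends, 1 of either rRNA stayed over 5%. These were T562A of 12S, at 5.88% in traditional and 2.42% in PANDORA-seq control, and C941A of 16S, at 11.9% and 1.41%. Exposure changed no position past the test in PANDORA-seq (0% of 3350 called, 85 of 1556 with an unadjusted exact permutation p under 0.05) or in traditional libraries (0% called, 77 of 1556). Over all 3350 positions, 170 in PANDORA-seq and 132 in traditional libraries had such a p.

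The 2 rRNAs held most of the mitochondrial reads in every library but PANDORA-seq DCHP libraries 3 and 4. They held 83.1 ± 2.61% (SD, n = 5) of the reads of the 37 mitochondrial genes in traditional control and 79.5 ± 2.41% (n = 5) in traditional DCHP, 78.8 ± 4.56% (n = 4) in PANDORA-seq control and 59.0 ± 11.1% (n = 5) in PANDORA-seq DCHP, where those libraries stood at 45.5% and 48.4%. The low PANDORA-seq DCHP share moved with mt-Th, the mitochondrial histidine tRNA, which took 27.1, 29.7, 51.5, 47.8 and 27.7% of mitochondrial reads there and 15.7, 17.7, 2.65 and 21.8% in PANDORA-seq control. The level of mt-Th per miRNA read was 4.07 times that of control but did not pass the test (exact permutation test, adjusted p = 0.881 over 37 genes). Its part in the share of the rRNAs was not tested.

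The neighbours on the transcript held far fewer reads than the rRNAs. These tRNAs are only 68 to 75 nt long, and the values are not scaled to length. In traditional control mt-Tv, the valine tRNA between 12S and 16S, stood at 0.000837 reads per miRNA read, mt-Tl1, a leucine tRNA, at 7.63e-05, and mt-Tf, the phenylalanine tRNA, at 9.98e-06. In PANDORA-seq control they stood at 0.000621, 5.32e-05 and 1.76e-06. None of these differences passed the test in control (exact permutation tests, adjusted p = 0.397, 0.229 and 0.142). In DCHP mt-Tf was lower in PANDORA-seq, at 2.48e-06 reads per miRNA read against 1.04e-05 (exact permutation test, adjusted p = 0.0134). In RPM it stood at 0 to 0.0503 against 0.510 to 1.11, which is at most a handful of reads in a PANDORA-seq library. In DCHP mt-Tv and mt-Tl1 did not pass (exact permutation tests, adjusted p = 0.389 and 0.0918).

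Per miRNA read, all 13 mitochondrial mRNAs were higher in PANDORA-seq in control and in DCHP, from 4.12 to 32.4 times in control, with mt-Cytb, the cytochrome b of respiratory complex III, at 32.4 times (exact permutation test, adjusted p = 0.0163). In RPM 10 of the 13 were still higher in control and 3 in DCHP. The traditional DCHP library 2 stood apart from its group, with 1.82% of its mitochondrial reads on the 13 mRNAs against 0.191% to 0.520% in the other 4 libraries, and without it, a choice made after seeing the data, 10 of the 13 were higher in DCHP. Of the 22 tRNAs, 4 were higher and 6 lower per miRNA read in control, and 6 and 10 in DCHP. In RPM 1 was higher and 15 lower in control, and 0 and 17 in DCHP. The other 35 genes gave 23 calls in control and 29 in DCHP, and over all 37 genes 64.9% and 83.8% were called. The latter includes 16S, whose 1.76-fold difference passed over 37 genes (adjusted p = 0.0392) but not over the 8 tests of the rRNA levels (adjusted p = 0.0847). With the DCHP libraries paired, 0 of the 35 were called. Exposure gave no call among the 35 in PANDORA-seq (0% of 37 called, 1 of 35 with an unadjusted exact permutation p under 0.05) or in traditional libraries (0% called, 3 of 35).

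Across the 19 libraries, the genes whose log2(RPM + 1) followed 12S most closely were the 16S rRNA (Pearson r = 0.950) and the tRNAs mt-Tt (0.880) and mt-Tq (0.872), out of 286 genes with at least 100 reads in each library. Those closest to 16S were mt-Tq (0.962), the 12S rRNA (0.950) and Gm22973 (0.940). These values rest in part on the difference between methods that the points share. Within the 9 PANDORA-seq libraries r was 0.854 for 12S with 16S, 0.544 for 16S with mt-Tq and 0.233 for 16S with Gm22973, and within the 10 traditional libraries it was 0.958, 0.794 and 0.806.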

How the data were processed

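The authors deposited 1 table per library with each distinct trimmed read of 15 to 45 nt, its length and its count of reads; their processing notes name the build mm10. These counts were used as deposited, with no normalization. Reads were matched (bwa 0.7.19, sense, at most 1 mismatch, no gaps) to GENCODE vM21 transcripts of GRCm38: 2198 miRNA hairpins (4 more that hold a tRNA locus were left out), 37 mitochondrial genes, 18S, 353 other rRNAs and 3532 other small RNAs. Nuclear copies of mitochondrial DNA were not analysed here.

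Groups of 4 or 5 libraries were compared by exact permutation, two-sided, on their difference in mean (smallest p 0.00794) and Benjamini-Hochberg adjustment, called at 0.05. Families were 8 tests for levels, lengths and last bases, 4 for the ratio, 88 bins, 3350 positions and 37 genes. Single sequences were tested with edgeR 4.0.16 (glmQLFit) with the miRNA reads as library size. DESeq2 1.42.0 was an alternative. In simulated data, edgeR recovered 65.5% of 200 sequences changed 8-fold between methods in control and 91.5% in DCHP (33330 sequences), and 98.5% with exposure in PANDORA-seq and 84.5% in traditional libraries (20000 sequences), with 4.38%, 6.63%, 5.29% and 12% of the calls false in these comparisons. The simulated counts of a comparison shared 1 dispersion. In the data, 56.0% of all sequences were called higher and 33.0% lower between methods in control, far more than the 200 changed here. The simulated rates may therefore not hold for the comparisons of methods. Mapping and exact tests were also tested on simulated data.

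Replicate numbers were taken as pairs only where every pair's deviations correlated over 0.1, which held for DCHP libraries between methods (5 of 5 pairs, r from 0.164 to 0.310). No 2 libraries of a group agreed within sampling noise (36 pairs). The rRNAs and the lists were chosen with earlier results of these data known. Named were the 5 leading sequences per method, the 3 leading bins per method, the 3 called bins with the largest difference between methods, ends over 5% of reads, positions over 5% mismatch, the neighbouring tRNAs and the 3 most alike genes. Alternatives were other denominators, scalings, match rules, length limits, coverage, leaving out each library and the replicate block.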

Additional observations from a re-analysis of the deposited data

Results flagged for a closer look

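The PANDORA-seq control library 1 stood apart from the other 3 libraries of its group in 12S level, at 846 RPM against 1339 to 1419, and its 16S level of 3202 was also the lowest of the 4. The PANDORA-seq control library 3 stood apart in the share of 12S reads with a mismatch at the last base, at 2.84%. About 1 in 20 groups would hold such a library by chance. The exposure effect on the log2 ratio of 16S to 12S reads differed between methods by 0.40, with DCHP above control in PANDORA-seq and below it in traditional libraries (exact permutation test, p = 0.0113), but did not pass over 7 such tests (adjusted p = 0.0791). What lies behind these values was not tested.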

How the results depend on the processing

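Each library held 21509 or more 12S reads, but mismatch shares were given for positions with 100 reads or more and shares past the rRNA ends rested on a few reads, and the number of libraries limits the tests. With total reads as the denominator the folds of PANDORA-seq over traditional were 0.511 and 0.449 for 12S in control and DCHP, the reverse of 2.65 and 2.49, and 0.278 and 0.317 for 16S. On the log2 scale the 12S folds were 2.84 and 2.49, and with sequences of at least 2 reads 2.59 and 2.42 (all adjusted p = 0.0635). With the narrower miRNA total, an added choice, the 16S folds were 37.2 and 43.7. The log2 ratio of 16S to 12S in traditional DCHP against control was -0.13 with sequences of at least 2 reads (adjusted p = 0.0529).

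With a replicate block the sign-flip test cannot go below 0.0625 with 5 pairs or 0.125 with 4, so every call of an exact test was lost: 12S folds of 3.11 in control and 2.49 in DCHP, ratio differences of -0.83, -0.47 and, for exposure in traditional libraries, -0.13, last-base differences of 11.3 and 10.1 points, and 0 bins, 0 positions and 0 mitochondrial genes called in either method contrast. Only the DCHP libraries of the 2 methods were taken as paired. In other groups at most 1 pair correlated over 0.1.

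Positions with another mismatch share in DCHP were 354 at a coverage of at least 1000 and 361 without read ends, a choice made after seeing the data. DESeq2 called 1 sequence for exposure in PANDORA-seq. Some log2 fold changes of the printed 16S fragments between methods, a description with no test, turned their sign. That of 1252-1291 in control was -0.12 with TMM. That of 1253-1291 was -1.02 with total reads and -1.60 with TMM in control, and -0.23 and -0.27 in DCHP. That of 1254-1291 in DCHP was -1.21 and -1.24. With TMM, 1254-1291 in control turned to -2.55 and 1253-1287 in DCHP to -2.10, and with the replicate block 1253-1287 in control turned to 0.11. The denominators differ by construction, and other causes were not tested.

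Leaving out 1 library, the 12S folds ranged from 2.32 to 3.11 in control (9 of 9 calls lost, to adjusted p of at most 0.0847). Each of these control fits gave the smallest p that its libraries allow. The 12S folds ranged from 2.05 to 2.91 in DCHP (5 of 10 lost), and the 16S fold in DCHP from 1.52 to 2.08 (a call without traditional DCHP library 1). Ratio differences ranged from -0.95 to -0.76 in control, and from -0.15 to -0.095 for exposure in traditional libraries. Length differences between methods in DCHP ranged from 3.08 to 4.07 nt for 12S and 1.91 to 2.59 nt for 16S, and with exposure in PANDORA-seq from 0.91 to 1.90 nt and 0.80 to 1.56 nt. The last-base difference for 12S in control ranged from 9.54 to 11.3 points, called bins for exposure in traditional libraries from 0 to 14, and called positions between methods in control were 0 throughout. None of these directions reversed, and exact matches, reads of 18 to 45 nt, reads with no equal or better match elsewhere, and reads past the ends changed no call, while a filter of at least 10 reads in at least 4 libraries gave 548 lower single sequences in control in place of 547.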
